A study of Mus musculus with 4 samples.

Results

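Bone marrow-derived macrophage-like cells (BMMs) from mice in which *Stat5* had been deleted were cultured with RANKL together with IL-3, and the transcripts of *Stat5* cKO cells are described here gene by gene against those of *Stat5* fl/fl cells under the same cytokines. Genes were taken into the comparison where at least 1 of these 2 libraries reached 1 FPKM (fragments per kilobase of transcript, scaled to library size, so that levels are corrected for transcript length), after the transcripts of a gene were summed and small RNA genes left out. This gave 10546 of the 23920 genes in the deposited table.

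Each condition was sequenced as 1 bulk library, after 24 h of culture. The *Stat5* fl/fl control cells carry floxed but intact *Stat5a* and *Stat5b* and gave 3 libraries. M-CSF, at 30 ng/mL, was present in each, the second also had 100 ng/mL of RANKL, and the third had 1 ng/mL of IL-3 on top of both. The *Stat5* cKO cells carry the same floxed alleles with Mx1-Cre and received all 3 cytokines at those doses. None of the 4 libraries is from cKO cells without IL-3. Differences already present in cKO cells without IL-3 therefore cannot be told apart from those that need it. Mx1-Cre is driven by a promoter that responds to type I interferon, so the deletion is not restricted to the osteoclast lineage. The labels name the strain C57BL/6 for all 4 libraries and an age of 8 weeks, whereas the methods give another age for the cultures. With 1 library on each side, no test, p-value or error between mice could be computed, and every ratio below compares 2 libraries rather than 2 genotypes. In bulk RNA, fewer cells of a type and less RNA per cell cannot be told apart.

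IL-3 signals through a receptor made of its own alpha chain and a shared beta chain, which activates the kinase JAK2. JAK2 phosphorylates the closely related STAT5A and STAT5B, which dimerise, enter the nucleus and bind DNA at sites of the form TTCNNNGAA. Among their best known targets are feedback inhibitors such as CIS (*Cish*) and SOCS2, and survival factors such as BCL-XL (*Bcl2l1*). RANKL drives the same precursors towards osteoclasts through NF-kB, c-Fos and NFATc1.

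Throughout, levels are given in FPKM in the order *Stat5* fl/fl with M-CSF, fl/fl with RANKL, fl/fl with RANKL and IL-3, and cKO with RANKL and IL-3 (M-CSF was in all 4). The log2 ratio compares the last with the third, on log2(FPKM + 1), which understates the change of genes with low levels. The first 2 libraries are printed for context, and any comparison that uses a library of this pair again is not independent of this ratio.

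The deletion was seen in the targeted genes. *Stat5a* stood at 9.89, 10.8, 11.96 and 0.168 FPKM (log2 ratio -3.47), and 1.40% of the fl/fl level remained. *Stat5b* had levels of 10.8, 7.80, 8.86 and 0.191 FPKM (log2 ratio -3.05), with 2.15% remaining. At the estimated depth these levels in the cKO library rest on about 24 and 35 fragments, against 1707 and 1646 in the matched fl/fl library. The cKO library was therefore far below all 3 fl/fl libraries for both genes.

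Several facts of the libraries precede the results. Depth, estimated from the steps between low values, was 33.2 to 36.7 M fragments per library. All 4 libraries are labelled male, yet *Xist*, the RNA of the inactive X chromosome, was listed at 31.9 to 47.0 FPKM and 4 Y-linked genes were at 0 in all 4, so the label and the RNA go against each other in every library, cKO and fl/fl alike. The labels call the cells osteoclasts or precursors. Of 10 osteoclast markers, 8 reached 1 FPKM in at least 1 library of the pair. The summed levels of the 10 were 45.9, 1277, 141 and 518 FPKM. In cKO 5 of them were at least 2-fold higher and none was lower on log2(FPKM + 1). *Itgb3* (integrin beta 3) went the other way, with a log2 ratio of -0.60 and at most 1.38 FPKM in any library. By FPKM it was 2.81-fold higher in fl/fl with RANKL and IL-3 than in cKO. *Calcr*, the calcitonin receptor of mature osteoclasts, was at 0 in all 4. Macrophage markers summed to 22884, 8490, 17996 and 12831 FPKM, most of it from *Lyz2* at 19887, 7176, 15871 and 11241 FPKM. Of the 10 macrophage markers 4 were at least 2-fold lower in cKO and 1 was higher (*Cx3cr1*). Neutrophil markers summed to 1316, 751, 1094 and 782 FPKM, with 1 of the 9 found at least 2-fold lower in cKO (*Elane*) and none higher; their part in the results was not tested. The T cell, B cell and erythroid markers found were all under 1 FPKM in both libraries of the pair.

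More genes were lower than higher in the cKO library, and the lower ones had the larger ratios. Of the 10546 genes, 461 were at least 2-fold lower in the cKO library (4.37%) and 228 at least 2-fold higher (2.16%), 6.53% in both directions together. At 4-fold the counts were 108 lower and 34 higher, at 8-fold 34 and 4, and at 16-fold 9 and 1. The median log2 ratio over all genes was 0.13, so a gene at a ratio of 0 lay slightly below the middle of the distribution, and 64.6% of genes had a ratio above 0. When the libraries were scaled to a common median, lower genes made up 76.7% of the 2-fold genes in place of 66.9%.

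Some of the most abundant transcripts were among the lower genes. Among the 911 genes above 100 FPKM in at least 1 of the pair, 74 (8.12%) were at least 2-fold lower and 14 (1.54%) higher. Among the 7196 genes between 5 and 100 FPKM the counts were 295 (4.10%) and 146 (2.03%). Among the 2439 genes between 1 and 5 FPKM they were 92 (3.77%) and 68 (2.79%). The genes were grouped by the same 2 libraries that give the ratio, and adding 1 FPKM shrinks ratios at low levels. Differences between these shares are therefore partly built in. Together the 461 lower genes held 8.51% of the summed FPKM of all genes in the fl/fl library with IL-3 and 2.24% in the cKO library. Their sums in the 4 libraries were 25096, 8617, 45254 and 11767 FPKM. The 228 higher genes summed to 2534, 8472, 2288 and 6591 FPKM. In the cKO library both sums lay between the fl/fl levels with RANKL alone and with RANKL and IL-3. The genes were picked by the ratio of this pair, which fixes the direction in which its 2 libraries differ in these sums and shares. Only the side towards RANKL alone was free to vary.

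A pair of short RNAs was listed in the fl/fl library with IL-3 alone and at 0 in the other 3: *Gm12238*, a predicted gene of 140 nt, at 61.3 FPKM and the neuronal RNA *Bc1* at 12.3 FPKM. Values of such short transcripts are unstable and no fold is given.

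**Figure D1:**
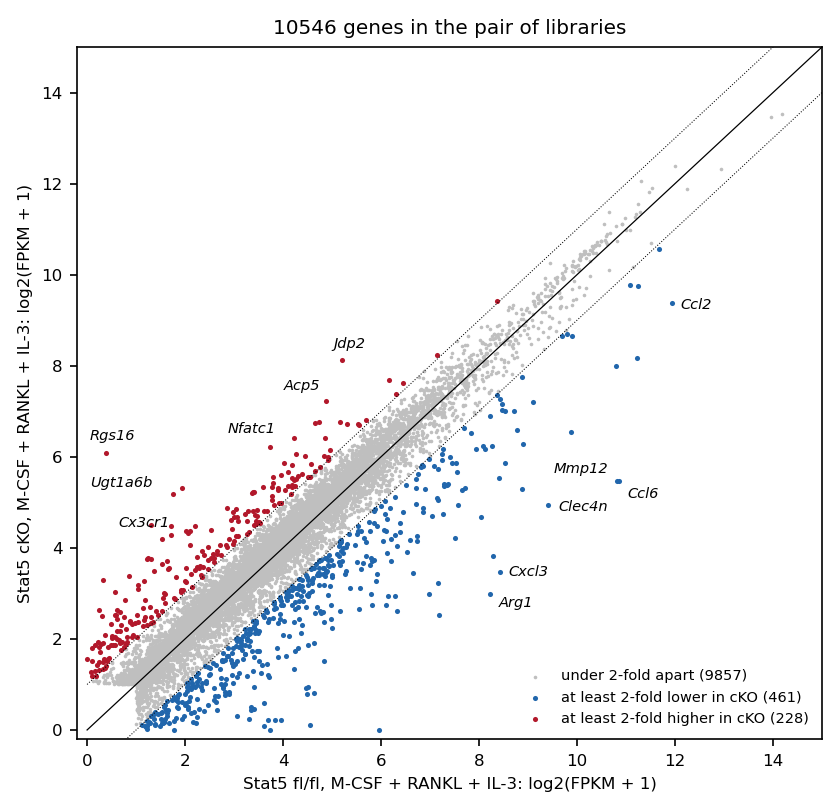
Level of each of 10546 genes in the matched pair of libraries, as log2(FPKM + 1) in *Stat5* fl/fl cells (x axis) and *Stat5* cKO cells (y axis), both with M-CSF, RANKL and IL-3. Each point is 1 gene, the solid line marks equal levels and the dotted lines 2-fold; the 461 lower genes (blue) reach further from the line than the 228 higher genes (red), *Ccl6* and *Mmp12* being furthest on the lower right among the labelled genes and *Rgs16* on the upper left.

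To place single genes in this distribution, 45 gene lists were described by the number of measured members at least 2-fold apart and by the median ratio. The medians of 36 lists were below that of all genes, 8 lists had a median of -1 or lower, and none reached 1. In 6 lists no member was at least 2-fold apart in either direction.

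Known STAT5 targets were the first list. Of 22 measured, 11 were at least 2-fold lower, 1 was higher, and the median ratio was -1.07. *Pim1*, a serine/threonine kinase that supports survival and growth, stood at 7.17, 6.79, 40.4 and 7.72 FPKM (log2 ratio -2.25). *Osm*, the cytokine oncostatin M, had levels of 5.09, 3.27, 23.8 and 2.77 FPKM (log2 ratio -2.72). *Socs3*, a feedback inhibitor of JAK kinases, stood at 1.12, 12.1, 30.7 and 12.4 FPKM (log2 ratio -1.25). For each of these 3 the cKO level was close to that of fl/fl cells with RANKL alone, and the fl/fl library with IL-3 was the highest of the 4.

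The shared beta chain of the IL-3, IL-5 and GM-CSF receptors was part of the same group. *Csf2rb* had levels of 32.2, 64.2, 165 and 41.3 FPKM (log2 ratio -1.97). Its mouse paralog *Csf2rb2*, which pairs with the IL-3 receptor only, stood at 16.5, 47.3, 52.7 and 29.7 FPKM (log2 ratio -0.81), and reads shared between these near-identical genes make their split uncertain. The alpha chains were closer to each other, with *Il3ra* at 17.0, 11.4, 13.2 and 10.5 FPKM (log2 ratio -0.30) and *Csf2ra* at 166, 108, 179.9 and 110.4 FPKM (log2 ratio -0.70). *Il7r*, the interleukin 7 receptor alpha chain, stood at 15.7, 7.15, 28.3 and 10.1 FPKM (log2 ratio -1.40) and *Ccnd2*, which encodes cyclin D2, at 3.45, 0.536, 5.11 and 0.666 FPKM (log2 ratio -1.88). *Bcl6*, a transcriptional repressor, was the member on the other side: it stood at 19.4, 9.41, 3.76 and 12.96 FPKM (log2 ratio 1.55) and was lowest in the fl/fl library with IL-3.

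The sequence that STAT5 recognises was looked up in the RefSeq promoters of these genes (GRCm38.p6, 250 bases before to 50 after each annotated start). Shown are genes of both directions whose promoters hold it, with the letters of TTCNNNGAA in capitals, each run 5′ to 3′ on the gene's own strand. The *Cish* run, chr9:107296659-107296678 (+), begins at the annotated start and holds the motif 2 times; the others lie within the 250 bases before a start. They are *Ccl17*, chr8:94810324-94810392 (+); *Irf8*, chr8:120736157-120736243 (+); *Fcgr1*, chr3:96294040-96294108 (-); *Socs3*, chr11:117969482-117969550 (-); and *Bcl6*, chr16:23981333-23981481 (-).
Cish: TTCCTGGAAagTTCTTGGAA
Ccl17: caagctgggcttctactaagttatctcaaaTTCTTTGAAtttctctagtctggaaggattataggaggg
Irf8: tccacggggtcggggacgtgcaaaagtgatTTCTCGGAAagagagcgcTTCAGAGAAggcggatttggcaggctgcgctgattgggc
Fcgr1: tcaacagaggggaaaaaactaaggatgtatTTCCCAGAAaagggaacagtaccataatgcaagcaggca
Socs3: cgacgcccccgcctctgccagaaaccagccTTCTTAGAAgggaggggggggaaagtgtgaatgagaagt
Bcl6: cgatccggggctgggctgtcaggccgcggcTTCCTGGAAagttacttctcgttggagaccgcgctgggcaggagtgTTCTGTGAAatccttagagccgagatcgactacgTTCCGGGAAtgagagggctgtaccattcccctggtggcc

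*Bcl6* holds the motif 3 times in the window shown and was higher in cKO, whereas *Cish*, *Ccl17*, *Irf8*, *Fcgr1* and *Socs3* were lower. The window of another annotated *Bcl6* start, not printed, holds it 1 time, in chr16:23988932-23989000 (-). Over all genes with a promoter in the table, 702 of 8562 (8.20%) held TTCNNNGAA, which reads the same on both strands. The share was 41 of 359 (11.4%) among genes at least 2-fold lower in cKO and 12 of 179 (6.70%) among those higher. Those lower and holding it included *Ccl17*, *Cish*, *Alas1*, *Serpinb2*, *Mgst1*, *Slc7a11*, *Batf3*, *Trem1*, *Tlr1*, *Tlr8* and *Il7r*, and those higher *Tsc22d1*, *Ptpn22* and *Cd82*. A match is a description of these letters in this window and was not tested against chance; no promoter was given for *Id1*, *Arg1* or *Socs2*.

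Chemokines, the secreted proteins that attract leukocytes, formed the list with the lowest median. Of 13 CC chemokines measured, 11 were at least 2-fold lower in cKO and none was higher, with a median ratio of -2.56. *Ccl6* had the lowest ratio of all genes that are not predicted and had levels of 94.3, 7.72, 1866 and 43.0 FPKM (log2 ratio -5.41). *Ccl12*, a ligand of CCR2, stood at 77.4, 2.76, 944 and 92.1 FPKM (log2 ratio -3.34) and *Ccl2*, the main chemokine for monocytes, at 1234, 79.2, 3942 and 667 FPKM (log2 ratio -2.56). *Ccl3*, a ligand of CCR1, stood at 25.5, 6.49, 263 and 24.5 FPKM (log2 ratio -3.37), and *Ccl9* at 163, 175, 547 and 147 FPKM (log2 ratio -1.89). Summed over the list the levels were 2150, 297, 10476 and 1312 FPKM. The fl/fl library with IL-3 was the highest of the 4 for each of these genes, and the cKO library was above fl/fl with RANKL alone for *Ccl6*, *Ccl12*, *Ccl2* and *Ccl3* but not for *Ccl9*.

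A pair of ligands of CCR4, a receptor found on type 2 helper T cells, was almost limited to the fl/fl library with IL-3. *Ccl17* stood at 0, 0.179, 22.4 and 0.0849 FPKM, 264-fold higher in fl/fl with IL-3 than in cKO by FPKM. The cKO level rests on about 2 fragments against 422. With fragments rounded to these whole numbers the ratio is 210-fold, with a 95% counting interval of 57.9 to 1743. *Ccl22* had levels of 0.142, 0.370, 3.88 and 0.386 FPKM (log2 ratio -1.82). Among the members without a 2-fold difference on log2(FPKM + 1) was *Ccl5*, a ligand of CCR1 and CCR3, at 5.77, 6.62, 4.99 and 10.4 FPKM (log2 ratio 0.92). By FPKM alone *Ccl5* was 2.08-fold higher in cKO.

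Of 9 CXC chemokines, 6 were at least 2-fold lower and 1 was higher (median ratio -2.03). *Cxcl3*, which draws neutrophils through CXCR2, stood at 2.27, 1.54, 346 and 10.05 FPKM (log2 ratio -4.97), and *Cxcl2*, which acts on the same receptor, at 3.00, 1.80, 69.9 and 6.72 FPKM (log2 ratio -3.20). The platelet chemokine genes *Ppbp* and *Pf4* stood at 13.7, 4.38, 125 and 6.98 FPKM (log2 ratio -3.98) and 657, 115, 1782 and 255 FPKM (log2 ratio -2.80); other megakaryocyte markers were near 0, *Itga2b* at 1.02, 0.733, 0.833 and 0.358 FPKM. The exception was *Cxcl10*, an interferon-induced ligand of CXCR3, at 3.25, 17.3, 26.0 and 53.4 FPKM (log2 ratio 1.01), which was higher in cKO than in all 3 fl/fl libraries.

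Receptors for chemokines and related signals differed in both directions. Of 14 measured, 5 were at least 2-fold lower and 1 was higher, with a median ratio of -0.71. *Ccr2*, the receptor for several of the ligands above, stood at 49.2, 8.59, 46.6 and 7.66 FPKM (log2 ratio -2.46). *Ccr1* stood at 18.2, 34.8, 82.8 and 22.4 FPKM (log2 ratio -1.84), and *Ltb4r1*, the high affinity leukotriene B4 receptor, at 2.47, 1.57, 17.8 and 1.52 FPKM (log2 ratio -2.90). *Cx3cr1*, the fractalkine receptor, was the one member higher in cKO, at 68.0, 15.1, 3.26 and 19.7 FPKM (log2 ratio 2.28), with its highest level in fl/fl cells with M-CSF alone.

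Genes of the alternatively activated macrophage state were lower in 8 of 11 cases, none higher, with a median of -1.73. *Arg1*, the arginase that splits arginine into ornithine and urea, stood at 17.2, 1.62, 298 and 6.92 FPKM (log2 ratio -5.24). *Mgl2*, a galactose-binding lectin, had levels of 2.12, 0.556, 145 and 4.77 FPKM (log2 ratio -4.66). *Retnla* stood at 0, 0.0350, 11.3 and 0.0665 FPKM, 169-fold higher in fl/fl than in cKO by FPKM. Its cKO level rests on about 1 fragment against 248. With fragments rounded to these whole numbers the ratio is 247-fold, with a 95% counting interval of 44.0 to 9808. The mannose receptor gene *Mrc1* stood at 80.5, 15.2, 115 and 28.3 FPKM (log2 ratio -1.99), the fibronectin gene *Fn1* at 96.9, 14.6, 91.9 and 14.0 FPKM (log2 ratio -2.63), and *Il4ra*, which encodes the receptor chain shared by IL-4 and IL-13, at 20.3, 6.64, 30.9 and 9.20 FPKM (log2 ratio -1.65). *Arg1*, *Mgl2* and *Retnla* were several times higher with IL-3 in fl/fl cells than in any of the other 3 libraries, whereas *Fn1* was similar in fl/fl cells with M-CSF alone and with IL-3.

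Among 14 C-type lectins 6 were at least 2-fold lower (median -0.58). *Clec4n* (Dectin-2), a receptor for fungal mannans, stood at 49.9, 19.6, 683 and 29.7 FPKM (log2 ratio -4.48). *Clec7a* (Dectin-1), which binds beta-glucans, had levels of 9.33, 5.22, 78.8 and 5.15 FPKM (log2 ratio -3.70). *Clec4a3* stood at 14.1, 8.10, 16.5 and 6.68 FPKM (log2 ratio -1.19), a value that is uncertain because the gene belongs to a cluster of near-identical copies. Of 8 CD300 receptors 1 was lower, *Cd300lf* at 20.7, 2.06, 55.6 and 5.75 FPKM (log2 ratio -3.07), and of 5 MS4A genes *Ms4a7* was higher at 71.3, 12.3, 10.1 and 25.2 FPKM (log2 ratio 1.24) and *Ms4a6d* lower at 142, 27.4, 113 and 55.9 FPKM (log2 ratio -1.002). With 4.37% of all genes lower and 2.16% higher, a count of 1 in lists this short says little about the list.

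Genes of antigen presentation were mostly lower. Of 9 genes of the MHC class II pathway, 8 were at least 2-fold lower and all 9 had a ratio below 0 (median -1.32). *H2-DMa*, which encodes a chain of the peptide exchange factor H2-M, had levels of 9.95, 2.34, 21.8 and 2.63 FPKM (log2 ratio -2.65). The invariant chain gene *Cd74* stood at 130.0, 83.4, 434 and 94.9 FPKM (log2 ratio -2.18), the class II chain gene *H2-Aa* at 44.0, 26.5, 68.7 and 23.8 FPKM (log2 ratio -1.49), and *Ctss*, the cathepsin that trims the invariant chain, at 661, 395, 883 and 413 FPKM (log2 ratio -1.09). For *H2-DMa*, *Cd74*, *H2-Aa* and *Ctss* the cKO level was close to fl/fl with RANKL alone.

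Of 18 costimulatory and dendritic cell genes listed, 11 were measured. Of these, 6 were at least 2-fold lower and none was higher (median -1.38). The dendritic cell genes *Flt3*, *Zbtb46*, *Ccr7*, *Cd83* and *Cd209a* were under 1 FPKM in both libraries of the pair. On log2(FPKM + 1), measured members under 2-fold were *Irf4* (log2 ratio -0.99), *Cd80* (-0.38), *Cd40* (-0.05), *Fscn1* (0.26) and *Relb* (0.59). *Irf4* is in this group only through the added 1 FPKM. It stood at 0.586, 0.120, 1.28 and 0.149 FPKM, 8.59-fold higher in fl/fl with IL-3 than in cKO by FPKM. *Itgax*, which encodes CD11c, stood at 7.78, 10.2, 99.7 and 9.95 FPKM (log2 ratio -3.20), and *Cd86*, a ligand of CD28, at 5.93, 2.43, 10.3 and 3.34 FPKM (log2 ratio -1.38). The transcription factor gene *Batf3* stood at 2.81, 0.432, 6.08 and 0.770 FPKM, *Cd274* (PD-L1) at 1.37, 8.93, 18.6 and 5.53 FPKM (log2 ratio -1.59) and the ICOS ligand gene *Icosl* at 11.3, 0.922, 7.14 and 1.73 FPKM (log2 ratio -1.58).

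Receptors for antibody and complement followed. Of 7 Fc receptor genes 4 were lower, with a median of -1.28. *Fcgr3* stood at 324, 34.1, 474 and 77.0 FPKM (log2 ratio -2.61), the high affinity receptor gene *Fcgr1* at 69.0, 3.32, 48.3 and 11.7 FPKM (log2 ratio -1.95), and the inhibitory receptor gene *Fcgr2b* at 36.1, 29.6, 154 and 39.8 FPKM (log2 ratio -1.93). *Fcgr4* did not reach 2-fold, at 8.51, 3.09, 3.83 and 5.42 FPKM (log2 ratio 0.41). Of 11 complement genes 5 were lower (median -0.76), among them *C1qa* at 536, 35.0, 276 and 70.8 FPKM (log2 ratio -1.95) and *C1qb* at 686, 71.3, 367 and 57.5 FPKM (log2 ratio -2.65). *Fcgr2b* was highest with IL-3 in fl/fl cells, whereas *C1qa* and *C1qb* were highest with M-CSF alone.

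Some genes of innate sensing and uptake were lower. Of 13 Toll-like receptor genes and adaptors, 4 were at least 2-fold lower (median -0.67): *Tlr1* at 10.9, 2.89, 17.7 and 4.18 FPKM (log2 ratio -1.85), *Tlr8* at 24.1, 2.63, 15.3 and 4.26 FPKM (log2 ratio -1.63), *Tlr4* at 17.8, 7.34, 36.1 and 12.2 FPKM (log2 ratio -1.49) and *Tlr6* at 8.15, 2.95, 8.98 and 3.36 FPKM (log2 ratio -1.19). *Tlr2*, the partner of TLR1 and TLR6 in sensing lipopeptides, stood at 31.7, 19.4, 42.8 and 26.6 FPKM (log2 ratio -0.67). Of 10 scavenger receptors 4 were lower (median -0.82), among them *Marco*, which binds bacteria, at 31.1, 19.1, 30.6 and 5.74 FPKM (log2 ratio -2.23) and *Mertk*, a receptor for the uptake of dying cells, at 10.8, 1.42, 10.1 and 2.31 FPKM (log2 ratio -1.74). *Trem1*, an amplifier of inflammatory signals, had levels of 12.6, 1.35, 19.2 and 4.39 FPKM (log2 ratio -1.90).

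Secreted cytokines and growth factors were lower in 9 of 18 cases, none higher, with a median of -0.89. *Csf1*, the gene of M-CSF itself, stood at 0.389, 0.407, 5.02 and 0.583 FPKM (log2 ratio -1.93). *Tnfsf14* (LIGHT), a member of the TNF family, stood at 1.94, 1.49, 16.5 and 3.16 FPKM (log2 ratio -2.07), *Hbegf*, a ligand of the EGF receptor, at 0.158, 2.45, 6.75 and 1.29 FPKM (log2 ratio -1.76), and *Igf1* at 152, 31.9, 107 and 48.6 FPKM (log2 ratio -1.12). The sum over the list ran the other way, at 7533, 1830, 3628 and 5011 FPKM, because *Spp1* (osteopontin) made up most of it at 6298, 1216, 2548 and 4229 FPKM (log2 ratio 0.73). In the interleukin-1 family, 5 of 14 were lower (median -0.78), with the agonist gene *Il1a* at 0.145, 0.198, 7.30 and 0.233 FPKM (log2 ratio -2.75) and the antagonist gene *Il1rn* at 12.5, 36.7, 139 and 33.0 FPKM (log2 ratio -2.05).

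Most members of the BCL2 family, which holds both survival and death genes, were under 2-fold apart, but several survival genes were lower. Of 15 measured, 4 were at least 2-fold lower, all of them antiapoptotic and 3 of them A1 copies, and 1 was higher, with a median of -0.09. The A1 genes stood at 56.4, 14.9, 309 and 13.1 FPKM (log2 ratio -4.46) for *Bcl2a1b*, 7.38, 2.42, 77.1 and 6.64 FPKM (log2 ratio -3.35) for *Bcl2a1d* and 2.15, 3.45, 67.2 and 5.73 FPKM (log2 ratio -3.34) for *Bcl2a1a*; these copies are near-identical, so their shares of the reads are uncertain. The lower member outside the A1 copies was *Bcl2l1* at 81.9, 7.90, 82.5 and 19.3 FPKM (log2 ratio -2.04). *Bcl2l11*, which encodes the death-promoting protein BIM, was the member that was higher, at 9.72, 15.4, 6.91 and 16.03 FPKM (log2 ratio 1.11). *Mcl1*, another antiapoptotic member, was nearly level at 92.5, 131, 104 and 109 FPKM (log2 ratio 0.07), and the pore-forming member *Bax* had levels of 176, 179.8, 233 and 219 FPKM (log2 ratio -0.09).

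Matrix proteases split into opposite groups. Of 13 genes of resorption proteases and matrix metalloproteinases, 7 were at least 2-fold lower and 4 higher. The macrophage elastase gene *Mmp12* stood at 59.1, 26.9, 1791 and 43.1 FPKM (log2 ratio -5.35), the collagenase genes *Mmp8* and *Mmp13* at 20.9, 8.90, 143 and 8.42 FPKM (log2 ratio -3.93) and 1.45, 0.262, 23.8 and 0.761 FPKM (log2 ratio -3.81), and *Mmp19* at 6.70, 6.04, 27.5 and 4.16 FPKM (log2 ratio -2.47). The urokinase receptor gene *Plaur* had levels of 103, 51.8, 229 and 91.4 FPKM (log2 ratio -1.32). On the other side stood the collagen-degrading osteoclast protease gene *Ctsk* with *Acp5*, *Mmp9* at 10.1, 182, 24.0 and 106 FPKM (log2 ratio 2.09) and *Mmp14* at 2.22, 41.8, 6.83 and 26.8 FPKM (log2 ratio 1.82). The lower genes were highest with IL-3 in fl/fl cells, and *Mmp9* and *Mmp14* were highest with RANKL alone.

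*F10* and *F7*, coagulation factors X and VII, stood at 1.28, 1.29, 21.5 and 0.725 FPKM (log2 ratio -3.70) and 0.552, 0.474, 11.3 and 0.515 FPKM (log2 ratio -3.02). *Serpinb2*, an inhibitor of urokinase, had levels of 0.387, 1.49, 18.6 and 2.50 FPKM (log2 ratio -2.49). No list of clotting genes was counted, and *F7* and *Serpinb2* were picked after their values were seen. Of 14 prostaglandin and leukotriene genes 4 were lower (median -0.48), among them the cyclooxygenase gene *Ptgs1* at 20.8, 5.28, 58.8 and 8.67 FPKM (log2 ratio -2.63), the thromboxane synthase gene *Tbxas1* at 73.9, 17.4, 77.1 and 18.3 FPKM (log2 ratio -2.02) and the 5-lipoxygenase gene *Alox5* at 14.98, 4.53, 21.2 and 5.55 FPKM (log2 ratio -1.76). For *F10* and *F7* the fl/fl library with IL-3 stood alone, and the other 3 libraries were at or below 1.29 FPKM.

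Metabolic lists differed in how many members were 2-fold apart. Over all genes the shares were 4.37% lower and 2.16% higher. Of 15 iron and haem genes 3 were lower and 1 was higher: the haem oxygenase gene *Hmox1* stood at 521, 78.7, 416 and 128 FPKM (log2 ratio -1.69), and the transferrin receptor gene *Tfrc*, which brings iron in, at 51.9, 95.3, 28.05 and 84.7 FPKM (log2 ratio 1.56). *Alas1*, the first enzyme of haem synthesis, had levels of 35.6, 38.6, 152 and 25.6 FPKM (log2 ratio -2.52). Of 19 NRF2 and glutathione genes 3 were lower, *Mgst1* at 83.2, 16.7, 78.9 and 15.5 FPKM (log2 ratio -2.28), the cystine transporter gene *Slc7a11* at 2.06, 1.56, 9.49 and 1.46 FPKM (log2 ratio -2.09) and *Gclm* at 216, 58.6, 183 and 57.3 FPKM (log2 ratio -1.66), while *Sod1* was higher at 451, 736, 331 and 684 FPKM (log2 ratio 1.05). Of 20 ATF4 and amino acid transport genes 4 were lower and none higher. Among these, *Slc7a2*, which imports arginine, stood at 1.17, 3.05, 15.6 and 2.09 FPKM (log2 ratio -2.43). *Ch25h*, which makes 25-hydroxycholesterol, was the only one of 21 fatty acid and LXR genes at least 2-fold apart, at 65.4, 2.24, 180.3 and 17.5 FPKM (log2 ratio -3.29). None of 22 sterol synthesis, 19 glycolysis and 26 respiratory chain genes was 2-fold apart, and their medians were -0.12, 0.09 and 0.12.

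Other receptors and kinases were mostly within 2-fold. Of 20 growth factor and cytokine receptors 4 were lower and 1 was higher (median -0.41), and the TNF receptor gene *Tnfrsf1b* had levels of 24.7, 12.5, 34.3 and 11.96 FPKM (log2 ratio -1.44). The only members at least 2-fold apart among 14 STAT and JAK genes were the deleted pair, and *Jak2*, the kinase of the IL-3 receptor, stood at 6.62, 5.29, 8.19 and 5.62 FPKM (log2 ratio -0.47). Of 14 cathepsins 2 were lower and 2 higher (median -0.50), with *Ctsh* at 51.6, 16.3, 56.7 and 12.3 FPKM (log2 ratio -2.11).

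**Figure D2:**
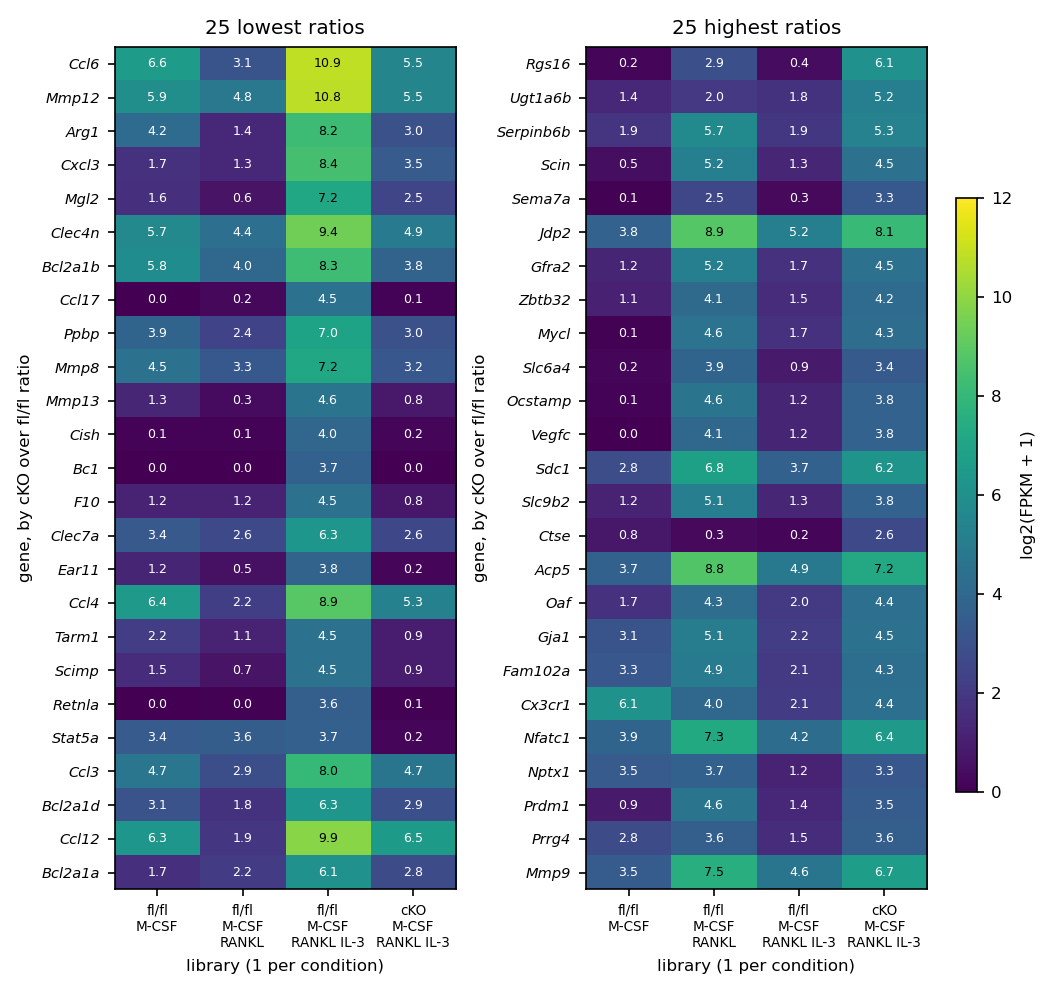
Levels as log2(FPKM + 1) in the 4 libraries (columns, 1 library each) for the 25 genes with the lowest (left) and the 25 with the highest (right) cKO over fl/fl ratio among genes of at least 5 FPKM that are not predicted. The lowest genes are brightest in the third column, most of the highest genes are bright in the RANKL and cKO columns, and *Rgs16*, *Ugt1a6b* and *Ctse* are among those brightest in the cKO column.

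Several transcription factors of the osteoclast programme were higher without STAT5. Of 26 transcription factors of osteoclast differentiation, 5 were at least 2-fold higher in cKO and none was lower, with a median of 0.45. A ratio above 0 was found for 20 of them, where 64.6% of all genes had one, and 19 were above the median of all genes. *Jdp2*, an AP-1 repressor family member needed for osteoclast formation, had levels of 12.8, 462, 35.8 and 276 FPKM (log2 ratio 2.92). *Prdm1*, which encodes BLIMP1, a repressor of antiosteoclastogenic genes, stood at 0.838, 23.5, 1.58 and 10.2 FPKM (log2 ratio 2.12). *Fos* stood at 42.0, 262, 86.8 and 195 FPKM (log2 ratio 1.16) and *Fosl2* at 11.1, 82.2, 17.3 and 40.5 FPKM (log2 ratio 1.18). For *Jdp2*, *Prdm1*, *Fos* and *Fosl2* the order was the same, with RANKL alone highest, then cKO, then fl/fl with IL-3, then M-CSF alone. The factors *Mitf* at 9.89, 32.6, 12.3 and 18.4 FPKM (log2 ratio 0.54) and *Spi1* (PU.1) at 268, 403, 337 and 382 FPKM (log2 ratio 0.18) stayed under 2-fold.

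Osteoclast effector genes did not all differ in the same way. Over all genes 4.37% were at least 2-fold lower and 2.16% higher, so a count of 1 among 12 or 23 genes says little about a list. Of 12 fusion genes, *Ocstamp* was higher and *Sirpa*, an inhibitory receptor for CD47, lower at 351, 131, 331 and 164 FPKM (log2 ratio -1.01). *Dcstamp*, the other transmembrane protein required for fusion, stood at 2.51, 44.0, 15.4 and 23.9 FPKM (log2 ratio 0.60), and *Atp6v0d2*, a proton pump subunit, at 2.38, 98.5, 27.5 and 34.1 FPKM (log2 ratio 0.30). Of 23 genes of acid and ion transport, *Slc9b2*, a sodium/proton exchanger, was higher at 1.27, 34.1, 1.48 and 12.5 FPKM (log2 ratio 2.45), and *Hvcn1*, a voltage-gated proton channel, was lower at 14.8, 12.7, 54.3 and 12.7 FPKM (log2 ratio -2.02). The carbonic anhydrase gene *Car2* stood at 0.432, 23.8, 3.71 and 7.503 FPKM (log2 ratio 0.85), and the pump subunit gene *Tcirg1* at 168, 275, 234 and 220.3 FPKM (log2 ratio -0.08). Of 18 receptors and ITAM adaptors, 3 were higher, *Tnfrsf11a* (RANK, the RANKL receptor) at 35.8, 61.4, 19.9 and 48.6 FPKM (log2 ratio 1.25), *Itgav* (integrin alpha V) at 27.3, 68.3, 9.31 and 35.7 FPKM (log2 ratio 1.83) and *Gpr137b* at 28.9, 81.9, 29.3 and 59.9 FPKM (log2 ratio 1.01), and 2 were lower, *Treml2* at 2.80, 0.681, 6.83 and 1.06 FPKM (log2 ratio -1.93) and *Sirpb1a* at 8.74, 5.01, 9.09 and 2.90 FPKM (log2 ratio -1.37). RANK was lowest in the fl/fl library with IL-3.

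Factors known to restrain osteoclasts were mixed. Of 21 measured, 6 were at least 2-fold lower and 3 higher, with a median of -0.49. *Maf*, which encodes c-MAF, stood at 59.8, 3.58, 27.6 and 8.05 FPKM (log2 ratio -1.66), *Cebpb* at 92.8, 42.7, 169.7 and 62.7 FPKM (log2 ratio -1.42) and *Notch1* at 7.38, 2.64, 7.95 and 2.36 FPKM (log2 ratio -1.41). The higher members were *Bcl6*, *Rcan1*, a calcineurin inhibitor, at 14.9, 80.4, 14.6 and 47.2 FPKM (log2 ratio 1.63), and the MAPK phosphatase gene *Dusp2* at 0.807, 4.59, 1.32 and 3.93 FPKM (log2 ratio 1.09). *Bcl6* is known to repress osteoclast genes, and *Rcan1* is itself induced by NFAT. Of 8 E proteins and partners only *Id1* and *Id2* were 2-fold apart, with ratios of -2.34 and -2.39; *Id3* stood at 126, 28.5, 65.6 and 44.2 FPKM (log2 ratio -0.56), and the E protein genes *Tcf3* and *Tcf12* stood at 16.3, 22.5, 18.1 and 22.9 FPKM (log2 ratio 0.32) and 16.5, 24.9, 14.9 and 20.95 FPKM (log2 ratio 0.47).

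Signalling genes downstream of RANK differed by list. Of 20 NF-kB pathway genes 1 was at least 2-fold higher, *Traf1* at 2.02, 112, 34.9 and 108 FPKM (log2 ratio 1.599), yet 18 had a ratio above 0 and 16 were above the median of all genes (list median 0.48). *Nfkb2*, the precursor of p52, stood at 15.8, 95.4, 46.4 and 86.6 FPKM (log2 ratio 0.89) and the inhibitor gene *Nfkbia* at 45.2, 198, 110.4 and 176 FPKM (log2 ratio 0.67). Of 19 AP-1 and immediate early genes, 6 were lower, among them *Atf3* at 52.7, 4.94, 54.4 and 6.92 FPKM (log2 ratio -2.81) and *Egr2* at 1.40, 4.09, 18.0 and 2.34 FPKM (log2 ratio -2.51), and 2 were higher, *Fos* and *Fosl2*, with a median of -0.48. Of 12 MAPK phosphatases and ERK feedback genes 3 were lower and 2 higher (median 0.20), with *Dusp6* lower at 66.2, 9.25, 47.5 and 19.5 FPKM (log2 ratio -1.24) and *Dusp4* higher at 10.9, 33.3, 13.8 and 37.8 FPKM (log2 ratio 1.39).

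Among all genes, many of the highest ratios belonged to genes that RANKL alone also showed at high levels. *Serpinb6b*, a serine protease inhibitor, stood at 2.66, 52.3, 2.84 and 39.0 FPKM (log2 ratio 3.38). *Scin*, the actin-severing protein scinderin, stood at 0.378, 34.9, 1.47 and 21.7 FPKM (log2 ratio 3.20), and *Sema7a*, a membrane-anchored semaphorin, at 0.0465, 4.85, 0.253 and 8.81 FPKM (log2 ratio 2.97). *Gfra2*, a GDNF family receptor, stood at 1.37, 35.0, 2.26 and 21.4 FPKM (log2 ratio 2.78), *Zbtb32*, a transcriptional repressor, at 1.16, 16.7, 1.87 and 17.4 FPKM (log2 ratio 2.68), and *Mycl*, a MYC family member, at 0.0553, 22.4, 2.26 and 18.3 FPKM (log2 ratio 2.57). *Slc6a4*, the serotonin transporter gene, stood at 0.146, 13.6, 0.815 and 9.44 FPKM (log2 ratio 2.52) and *Vegfc*, a lymphatic growth factor, at 0.0170, 15.6, 1.38 and 12.6 FPKM (log2 ratio 2.52). *Sdc1*, which encodes syndecan-1, stood at 6.16, 113, 12.4 and 73.1 FPKM (log2 ratio 2.47). For *Sema7a* and *Zbtb32* the cKO library was the highest of the 4, and for the other 7 it was second to fl/fl with RANKL alone.

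Integrin chains took both directions, with 3 of 13 higher and 3 lower. *Itga6* and *Itga4* stood at 41.1, 13.2, 6.63 and 23.6 FPKM (log2 ratio 1.69) and 19.2, 39.4, 9.71 and 25.5 FPKM (log2 ratio 1.31), and *Itgam* (CD11b) at 219.6, 103, 351 and 141 FPKM (log2 ratio -1.31). *Itga6* was lowest with IL-3 in fl/fl cells and highest with M-CSF alone.

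Genes of cell division differed by small amounts in 1 direction. All 27 DNA replication genes had a ratio above the median of all genes, with a list median of 0.51, and so did all 24 genes of mitosis and spindle, with a median of 0.61, although none was 2-fold apart. *Mcm6*, a subunit of the replicative helicase, stood at 102, 148, 75.2 and 128 FPKM (log2 ratio 0.75), and *Ube2c*, a ubiquitin-conjugating enzyme of mitotic exit, at 133, 191, 115 and 211 FPKM (log2 ratio 0.87). The sums were 1589, 1618, 1259 and 1762 FPKM for DNA replication and 1211, 1352, 951 and 1467 FPKM for mitosis, so fl/fl with IL-3 was lowest and cKO highest. Of 24 cytosolic ribosomal protein genes 23 were above the median of all genes (list median 0.28).

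Interferon-stimulated genes were higher in 4 of 29 cases, with a list median of 0.47, and 25 had a ratio above the median of all genes. *Ifit1* stood at 2.94, 3.36, 3.97 and 11.2 FPKM (log2 ratio 1.29), *Ifit3* at 4.51, 3.80, 5.28 and 14.2 FPKM (log2 ratio 1.27) and *Isg15*, a ubiquitin-like modifier, at 13.4, 17.5, 16.1 and 40.1 FPKM (log2 ratio 1.26); in each the 3 fl/fl libraries were close together and the cKO library alone was high. *Rtp4* stood at 29.8, 22.6, 21.7 and 46.2 FPKM (log2 ratio 1.06). *Mx1*, whose promoter drives the Cre, had levels of 1.83, 0.864, 4.24 and 2.91 FPKM (log2 ratio -0.42). The methods state that mice of both genotypes received poly I:C, an inducer of interferon, and its part in these values was not tested.

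**Figure D3:**
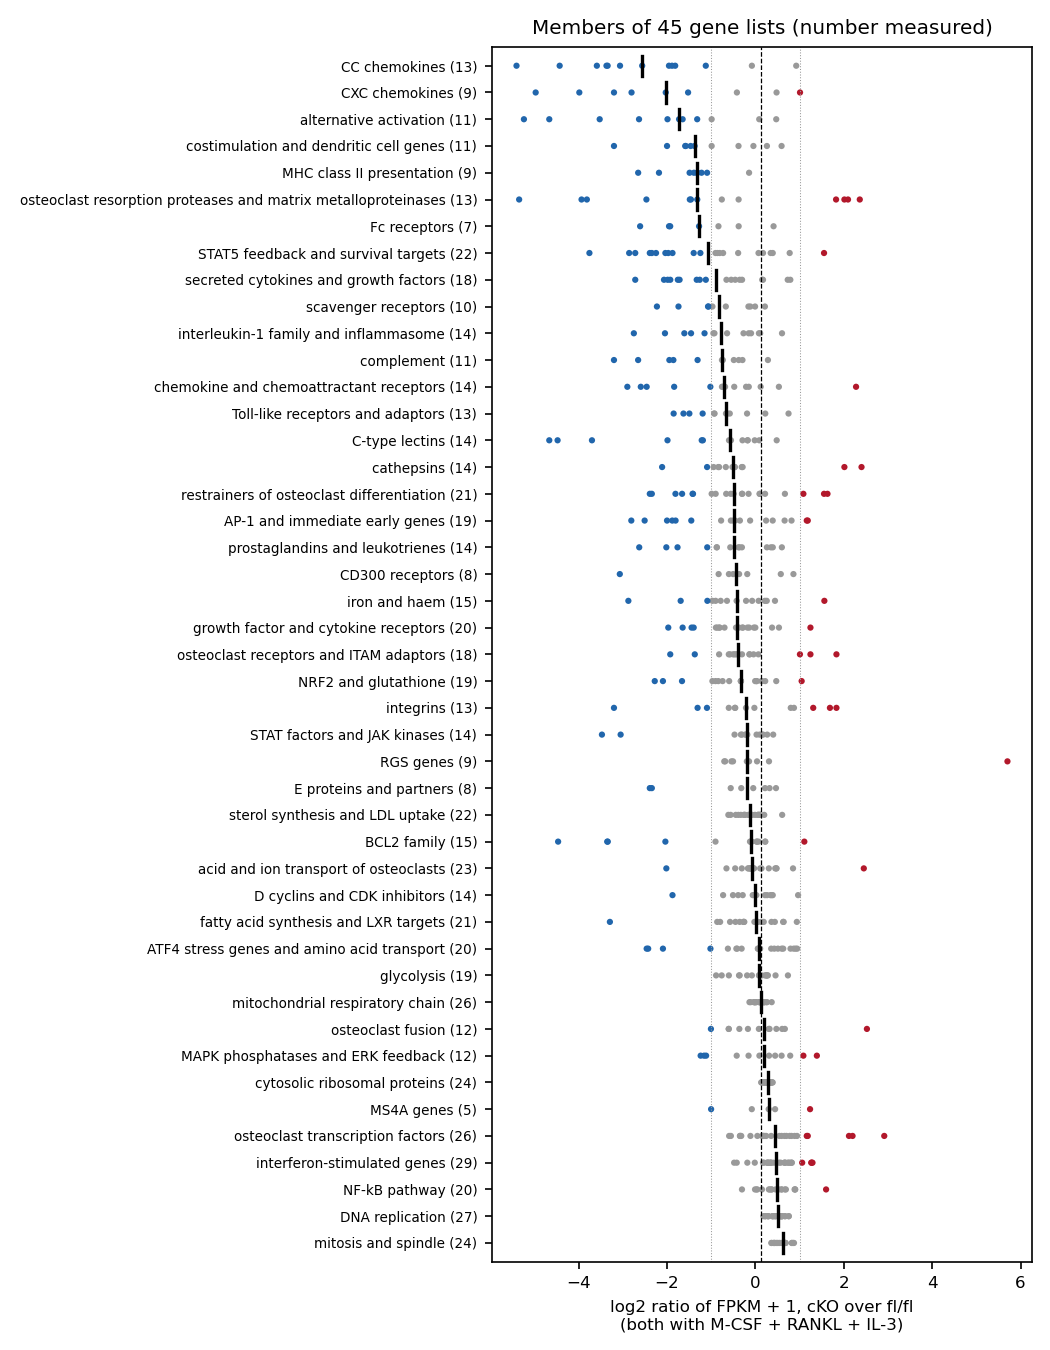
Log2 ratio of FPKM + 1, cKO over fl/fl, for each measured member of 45 gene lists (points; blue at least 2-fold lower, red at least 2-fold higher), ordered by list median (black bars). The dashed line is the median of all genes (0.13) and the dotted lines mark 2-fold; CC chemokines lie furthest to the left by median (-2.56), and the members of DNA replication and mitosis lie together to the right of the dashed line.

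**Figure D4:**
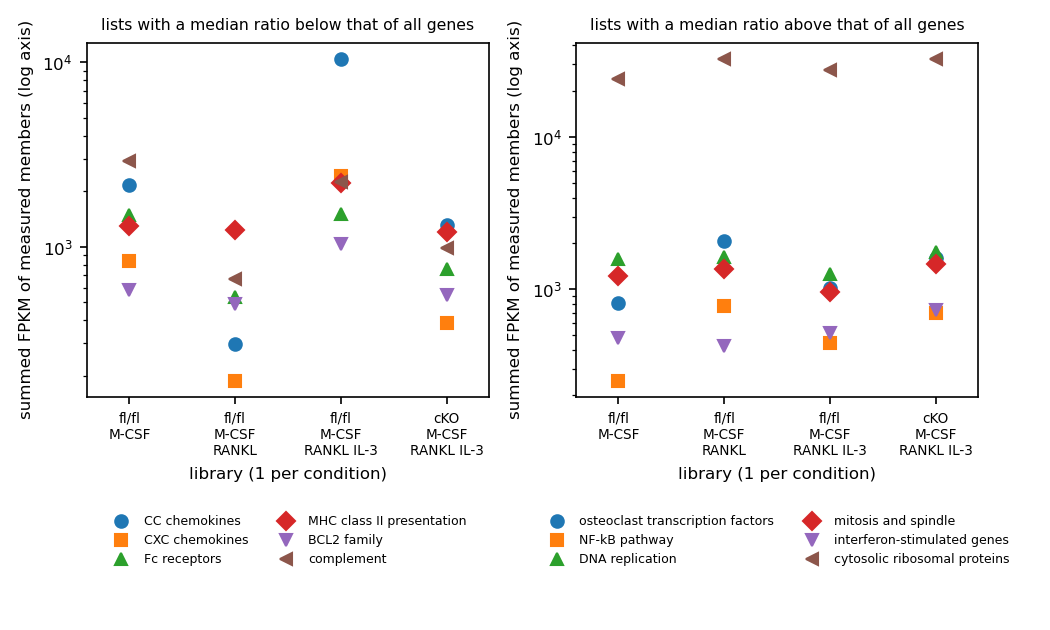
Summed FPKM of the measured members of 12 lists in the 4 libraries, 1 library per condition, on log axes that differ between panels. CC chemokines sum to 10476 FPKM in fl/fl with IL-3 and 1312 in cKO (left), and osteoclast transcription factors to 1014 and 1599 FPKM (right).

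Of the 10766 genes at 1 FPKM or more in any of the 4 libraries, 22 set cKO apart from all 3 fl/fl libraries by at least 2-fold. In cKO 14 of them were above and 8 below. Those above include *Rgs16*, a regulator of G protein signalling, at 0.174, 6.70, 0.304 and 66.9 FPKM (log2 ratio 5.70), the glucuronosyltransferase gene *Ugt1a6b* at 1.57, 3.04, 2.37 and 35.5 FPKM (log2 ratio 3.44), which shares exons with its neighbours so that its reads are uncertain, and the aspartic protease gene *Ctse* at 0.685, 0.247, 0.176 and 5.21 FPKM (log2 ratio 2.40). Apart from *Stat5a* and *Stat5b*, those below include *Fblim1*, a filamin-binding adaptor, at 13.1, 15.6, 11.98 and 1.31 FPKM (log2 ratio -2.49), *Glul*, glutamine synthetase, at 93.8, 129, 105 and 18.3 FPKM (log2 ratio -2.46), *Padi4*, which converts arginine in proteins to citrulline, at 10.8, 4.67, 5.61 and 1.02 FPKM (log2 ratio -1.71), and *Plod1*, a lysyl hydroxylase of collagen, at 76.5, 47.9, 39.9 and 18.7 FPKM (log2 ratio -1.06). *Npl*, an enzyme of sialic acid breakdown, was above at 5.50, 2.82, 7.19 and 27.9 FPKM (log2 ratio 1.82), and *Marco* and *Chst10*, a sulfotransferase, were below, the latter at 2.53, 2.42, 1.32 and 0.0530 FPKM (log2 ratio -1.14). On GRCm38, the assembly also called mm10, 7 of the 22 genes lie on chromosome 1 (*Ugt1a6b*, *Rgs16*, *Ctse*, *Npl*, *Glul*, *Marco* and *Chst10*), which holds 5.88% of the measured genes that could be placed. Of these, *Npl* at chr1:153503016-153549714, *Rgs16* at chr1:153740353-153745468 and *Glul* at chr1:153899929-153909723 lie within 407 kb, the first 2 above and *Glul* below. Chromosome 4, with 6.16% of the placed genes, holds 4 of the 22, *Isg15*, *Fblim1* at chr4:141576062-141606052, *Padi4* at chr4:140745508-140774239 and *Plod1* at chr4:147909753-147936776. Chromosome 19, with 3.72% of the placed genes, holds 3 of the 22, all above. They are *Ifit3* at chr19:34583119-34588982, *I830012O16Rik* at chr19:34607530-34613403 and *Ifit1* at chr19:34640889-34650009. These positions were looked at after the genes were known, and no test was run on them. For *Fblim1* and *Glul* the 3 fl/fl libraries were within 1.5-fold of each other. Whether these genes differ through STAT5 or through the mice cannot be told apart with 1 library per genotype.

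Neighbours of the deleted genes were mostly level. Of 27 genes listed within 300 kb of *Stat5b* and *Stat5a* on chromosome 11, 19 were measured, and 18 had ratios between -0.43 and 0.75. *Stat3*, whose gene lies next to *Stat5a*, stood at 21.3, 14.5, 19.1 and 14.98 FPKM (log2 ratio -0.33). The exception was *Atp6v0a1*, a subunit of the vacuolar proton pump 124 kb away, at 62.6, 7.83, 95.4 and 17.0 FPKM (log2 ratio -2.42); it was also low in fl/fl cells with RANKL alone.

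**Figure D5:**
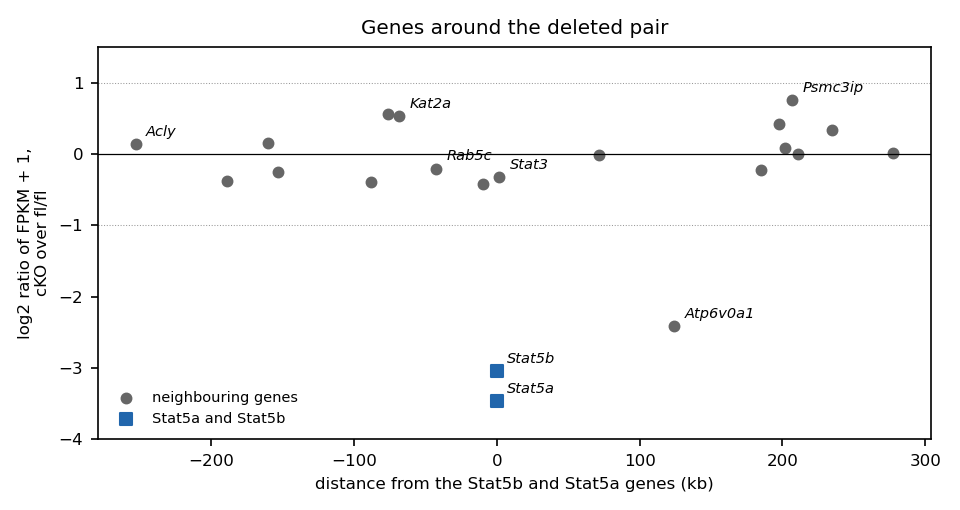
Log2 ratio of FPKM + 1, cKO over fl/fl, of the genes measured within 300 kb of the deleted pair, against distance in kb. *Stat5a* and *Stat5b* (squares) lie at -3.47 and -3.05, *Atp6v0a1* at -2.42, and the other 18 neighbours (points) between the dotted 2-fold lines.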

How the data were processed

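Total RNA of BMMs was sequenced in 1 bulk library for each of 4 conditions. The submitters' processing notes name mm10, TopHat2 2.0.13 and Cufflinks 2.2.1, with which the authors mapped the reads and derived levels after a TruSeq preparation. The deposited table holds 33170 RefSeq transcripts, and its unit, which is not written in it, was read as FPKM from the software and the values. No source used here gives the options of either tool. Multiple-mapped reads can shift levels between near-identical genes.

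Transcripts were summed per gene ID, and 29 small RNA genes that reached the minimum were left out, since FPKM of short transcripts is unstable. Differences of log2(FPKM + 1) were computed for genes of at least 1 FPKM in either library, and genes at least 2-fold apart were counted. No test was run, because each condition had 1 library. For depth, FPKM was multiplied by length in genes with 1 transcript of 3000 nt or more, where low values lie on steps worth 1 fragment; 70.4% to 71.5% of these values were no more than 0.2 steps from a whole number, against 40% for values spread evenly, and the step was fitted to the same values. Counting intervals use this depth and cover counting error only.

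The members and the 45 gene lists were chosen with earlier results of these data known. Genes to name were those with the 25 highest and 25 lowest ratios among genes of at least 5 FPKM that are neither small RNA nor predicted genes, as many as 6 members per list by size of ratio, genes the study names, and the 10 genes furthest above and below all 3 fl/fl libraries. Not every one of these is reported. Others, among them *F7*, *Serpinb2*, *Alas1*, *Trem1*, *Ccl5*, *Bax*, *Mcl1*, *Tlr2*, *Xist* and *Gm12238*, were chosen after their values were seen. Gene positions and promoters came from RefSeq on GRCm38.p6, and 8562 of the 10546 genes had a promoter. The steps were tested on simulated libraries with known folds. Alternatives were a pseudocount of 0.1 FPKM, median and upper-quartile scaling, the most abundant transcript per gene, other minimums and thresholds, and small RNA genes kept; other motif windows, and a pseudocount or transcript choice for genes apart in the cKO library, were added once the data had been seen. The software was Python 3.11.15 with pandas 2.3.3, numpy 2.4.6, matplotlib 3.10.9 and scipy 1.17.1.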

Additional observations from a re-analysis of the deposited data

Results flagged for a closer look

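Outside the genes compared, 7 small RNA genes reached 1 FPKM in the cKO library and were at 0 in all 3 fl/fl libraries, which is why they are listed here. They were *Snora68* at 648 FPKM, *Snora44* at 118, *Snora70* at 83.0, *Snora62* at 44.9, *Snora17* at 33.1, *Mir3535* at 12.6 and *Snora74a* at 1.598. In the other direction, 6 small RNA genes reached 1 FPKM in the fl/fl library with RANKL and IL-3 and were at 0 in the other 3, among them *Mir5132* at 3596 FPKM and *Snord16a* at 895. The libraries were not made to capture small RNAs, and no ratio is given for these genes.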

How the results depend on the processing

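No paired analysis was possible because each condition has 1 library. Ratios of 2 libraries cannot separate genotype from differences between mice, cultures or preparations. With a pseudocount of 0.1 FPKM the genes at least 2-fold higher numbered 358 in place of 228 and those lower 627 in place of 461, the ratios of *Stat5a* and *Stat5b* became -5.49 and -4.95 (smaller pseudocounts compress low genes less), and the cKO library stood apart from the other 3 in 23 genes above and 14 below. At 1.5-fold the counts were 899 higher and 956 lower, and at 4-fold 34 and 108, by construction. Only in the 250 bases before the start, TTCNNNGAA was found in 7.12% of all promoters, and in the first listed window of each gene in 6.90% of all and 8.36% of the lower genes; fewer bases were searched. Median and upper-quartile scaling gave 175 and 201 genes higher and 575 and 523 lower. The number of lists with a median below that of all genes stayed within 1.5 times of 36 under each alternative run for it. Of 178 named genes at least 2-fold apart, none changed sign under the other pseudocount, either scaling or the most abundant transcript, and 6 came under 2-fold in 1 or more of these: *Sirpa*, *Bcl2l11*, *Dusp2*, *Gpr137b*, *Rtp4* and *Sod1*. These 178 do not cover every gene in the text. *Cxcl10*, with a log2 ratio of 1.01, is not among them and was also close to the threshold. Depth limits genes such as *Ccl17* and *Retnla*, whose cKO levels rest on 2 and 1 fragments.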
